A study of Glycyrrhiza uralensis with 15 samples.

Results

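In seedlings of Glycyrrhiza uralensis, the licorice plant, 30197 genes were measured. Of these, 246 were higher in each of 3 watered libraries than in any of 12 droughted libraries. The 178 described here also met the further conditions given below. They were chosen by that property from the deposited expression values, so their difference between watered and droughted plants is described here and not tested. The rule also asked for a mean of 5 CPM or more in the watered group, where CPM is a gene's share of the reads of a library scaled to a fixed total. Its last clause removed genes that were low in the doubly treated group alone, by asking that the mean of that group exceed 0.5 times the smallest mean of the other 3 droughted groups, or that all 4 droughted means lie under 1 CPM. Before that clause 187 genes qualified, and it removed 9. Of the 178, 172 met its first condition, and 6 met only the other.

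The libraries came from whole plants at an age of 45 days, 3 in each of 5 groups, with full-length cDNA read on a nanopore instrument. Watered controls (CK) grew in sand held at 65 to 75% of its moisture at saturation, and plants under drought alone (D) at 35 to 45%. Droughted plants of a further 2 groups, at the same 35 to 45%, were given the bacterium Bacillus pumilus strain G5 (DB) or 2 mM silicon (DSi), and another group received both (DBSi), for which the labels state neither moisture nor silicon dose. No watered group received either addition. A library is named by its group and replicate number, as in CK-2. Each pot was sown with 60 seeds, and the labels do not say how many plants or pots a library holds. Because whole plants were ground, fewer cells of a type and less RNA per cell cannot be told apart. Whether shoot and root shares were alike was not checked, since no table used here gives the IDs gene names.

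A plant short of water closes its stomata and slows cell expansion, and transcripts that serve growth and water transport commonly fall while protective ones rise. Bacillus pumilus is known as a root-associated bacterium that can promote plant growth, and silicon taken up by roots is deposited in cell walls. Licorice is a legume of dry regions whose roots hold sweet triterpene saponins. The files pair no ID with a gene name, so the genes below are given by ID, without roles, and no sequence is shown for them.

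Libraries held 3039422 to 4043823 reads assigned to genes, so that 1 read was worth 0.247 to 0.329 CPM. The first principal component over genes (22.1% of variance) had DBSi-2 (74.8) and DBSi-3 (65.4) at one end and CK-2 (-60.6) at the other. On the second (16.6%), CK-3 (45.4), D-2 (47.3) and DB-3 (75.2) had the highest scores, against 21.4 or less in the other 12 libraries. The lowest scores were those of DBSi-3 (-48.6), DBSi-1 (-45.8) and DSi-1 (-45.7). The membership rule uses every library, so each of these could decide it. Without DB-3, 202 genes met the rule and 177 of them were among the 178. Without D-2 the numbers were 248 and 178, and without CK-3 they were 639 and 178. Without DBSi-3, DBSi-1 or DSi-1, 202, 180 and 206 genes met it, with 177, 173 and 178 shared. Without DBSi-2 the numbers were 191 and 178, and without CK-2 they were 330 and 171.

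The working name of these genes, high only in watered seedlings, describes a minority of them. The ratio of the CK mean to the mean over the 12 droughted libraries had a median of 1.60 and ran from 1.13 upward. For 124 of the 178 genes (69.7%) it was under 2, for 26 it lay between 2 and 4, and for 28 (15.7%) it was 4 or more. Over all 15501 genes with a CK mean of 5 CPM or more, the median ratio was 1.06, and 1.16% had a ratio of 4 or more. As a background, 1.21% of those genes had their lowest CK library above the other 12 libraries. The same count for the other groups gave 0.335% for D, 0.232% for DB, 0.317% for DSi and 5.12% for DBSi. The CK share is thus above those of D, DB and DSi and below that of DBSi. The condition behind the CK share is part of the rule that chose the members, and nothing further is read from these shares. In the plot of CK level against droughted mean, most genes lie close to the line of equality and a small group lies far above it.

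**Figure D1:**
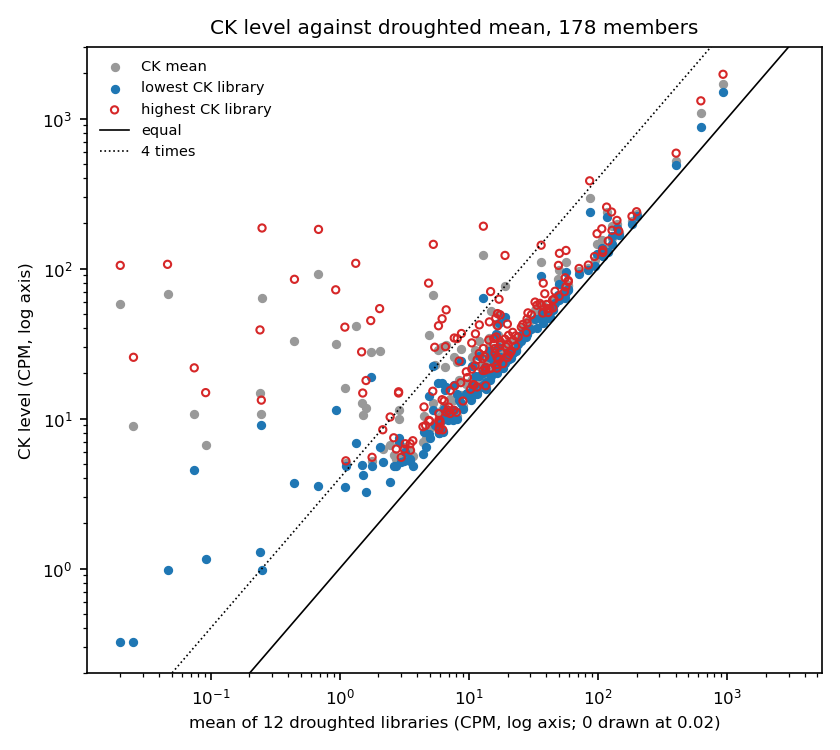
Level in CK (vertical, CPM, log axis) against the mean of the 12 droughted libraries (horizontal, CPM, log axis) for the 178 genes, each drawn as its CK mean (grey), lowest CK library (blue) and highest CK library (open red). Of the 178 genes, 124 have a ratio of means under 2, and at low droughted levels the 3 CK values of a gene spread widely.

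The 28 genes with a ratio of 4 or more held the large differences, and most of them also varied among the 3 watered libraries. Their CK means ran from 5.08 to 123 CPM, with a median of 28.4 CPM, and their droughted means from 0 to 19.1 CPM, with a median of 1.41 CPM. In 20 of the 28 (71.4%) the highest CK library was more than 3 times the lowest. In 11 of the 28, the SD of the CK libraries exceeded the difference between the CK mean and the droughted mean. In 1 of the 28, Glyur000387s00017687, the highest CK library exceeded the lowest by a factor at least as large as its ratio. CK-1 was the highest of the 3 in 13 genes, CK-2 in 13 and CK-3 in 2. CK-2 was over 10 times CK-1 in 7 genes, and CK-1 over 10 times CK-2 in 2. In 15 of the 28, even the lowest CK library was at least 4 times the droughted mean. Among these are Glyur000387s00017687, Glyur003348s00039967 and Glyur000434s00017229, whose lowest CK library held 3 reads or fewer. Glyur000387s00017687 is counted here with its droughted mean of 0. Its lowest CK library, at 0.324 CPM, lies under the floor, which is 0.898 CPM. Among all genes with a ratio of 4 or more, 93.3% of 180 had a highest CK library more than 3 times the lowest.

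**Figure D2:**
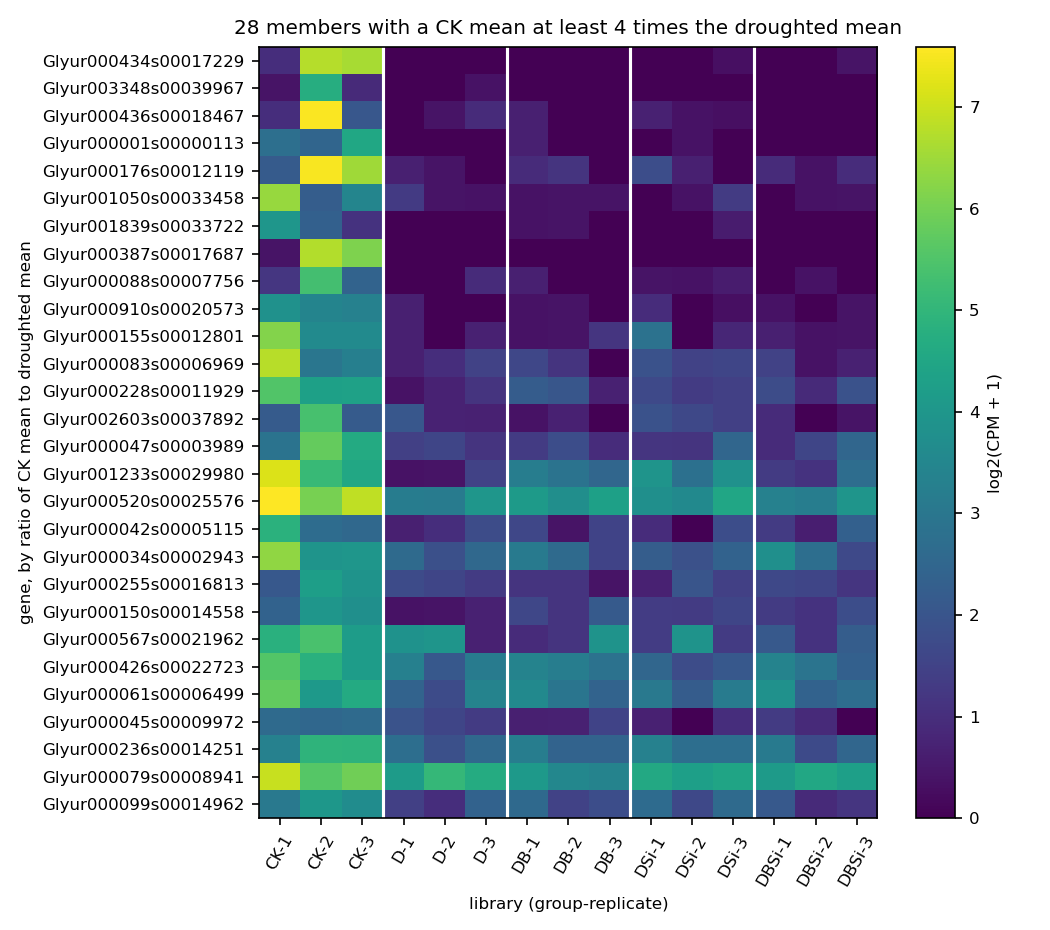
Level in each library (colour, log2 of CPM plus a pseudocount of 1) of the 28 genes whose CK mean was 4 times the droughted mean or more, in order of that ratio, with groups parted by white lines. In 20 of the 28 rows the brightest CK library is more than 3 times the dimmest.

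Of the 178 genes, 9 had all 4 droughted means under 1 CPM, against 59 of 15501 genes with the same CK minimum (0.381%). The rule itself admits genes by this property, and 6 members entered only by it, so nothing is read from the difference. Glyur000387s00017687 had no read in any of the 12 droughted libraries. It stood at 0.324 CPM in CK-1, which is 1 read, at 105 CPM in CK-2 and at 67.9 CPM in CK-3. Set against a floor of 3 reads per library, its CK mean of 57.8 ± 53 CPM (SD, n = 3) was at least 64.4-fold higher than in droughted plants. The single read in CK-1 lies under the same floor, so at this depth that watered library is not separated from the droughted ones.

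Glyur000434s00017229 had the same order among watered libraries, at 0.971, 106.7 and 94.9 CPM in CK-1, CK-2 and CK-3. The 12 droughted libraries held 2 reads of it in all, against 705 in CK. The ratio of pooled reads, scaled by total reads, was 1414, with an exact 95% counting interval from 390 to 11695. The ratio of means was 1453. The interval covers counting error only, and in CK-1 the gene had 3 reads, no more than the floor. Glyur003348s00039967 stood at 0.324, 25.6 and 0.871 CPM in CK and had 1 read in the droughted libraries (ratio of pooled reads 377, counting interval 66 to 15045). Glyur000436s00018467 stood at 0.971, 186 and 3.19 CPM in CK-1, CK-2 and CK-3, against a droughted mean of 0.251 CPM and a highest droughted library of 0.911 CPM. Both genes were high in CK-2 alone, and in these 4 genes the lowest CK library held 3 reads or fewer.

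Other genes near 0 under drought were spread differently over the watered libraries. Glyur000001s00000113 was highest in CK-3, at 5.83, 4.55 and 21.8 CPM in the 3 CK libraries, and 3 reads in all came from droughted plants (ratio of pooled reads 146, counting interval 48.6 to 717). Its lowest CK library was 7.62 times its highest droughted one. Glyur001050s00033458 was high in CK-1, at 84.8, 3.70 and 9.87 CPM, with droughted libraries from 0 to 1.48 CPM. Glyur001839s00033722 was also highest in CK-1, at 14.9, 3.98 and 1.16 CPM in CK-1, CK-2 and CK-3, with a droughted mean of 0.0917 CPM. Glyur000088s00007756, at 1.29, 39.0 and 4.36 CPM, was again high in CK-2, with a droughted mean of 0.242 CPM.

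The ninth of these genes, Glyur000910s00020573, differed least among the CK libraries. It stood at 13.3, 9.68 and 9.001 CPM in CK-1, CK-2 and CK-3 and between 0 and 0.933 CPM in the 12 droughted libraries. Its lowest CK library was 9.65 times its highest droughted one. Its CK mean of 10.6 ± 2.3 CPM (SD, n = 3) was 43.0 times its droughted mean of 0.248 CPM. This gene, Glyur000088s00007756 and the genes of the next paragraph other than Glyur000176s00012119, were chosen after their values were seen.

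A further 7 genes had a droughted mean of 0.747 to 7.95% of the CK mean, with at least 1 droughted group mean of 1 CPM or more. Glyur000176s00012119, at 3.56, 182 and 89.7 CPM in CK, had a droughted mean of 0.686 CPM and a highest droughted library of 2.49 CPM in DSi-1. As in Glyur000387s00017687 and Glyur000434s00017229, CK-1 was the low watered library. Glyur000155s00012801 had the opposite order, at 72.2, 11.4 and 11.3 CPM, and its 12 droughted libraries ran from 0 to 6.22 CPM with a median of 0.442 CPM. Glyur000083s00006969 likewise stood at 108, 6.83 and 8.71 CPM, with a droughted median of 1.51 CPM. Glyur000228s00011929 was more even, at 45.0, 19.1 and 19.2 CPM, and its droughted libraries ran from 0.287 to 3.59 CPM. Outside these 7, Glyur000520s00025576 stood at 192, 64.0 and 114 CPM in CK and from 7.90 to 21.3 CPM in the droughted libraries, a ratio of 9.50.

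**Figure D3:**
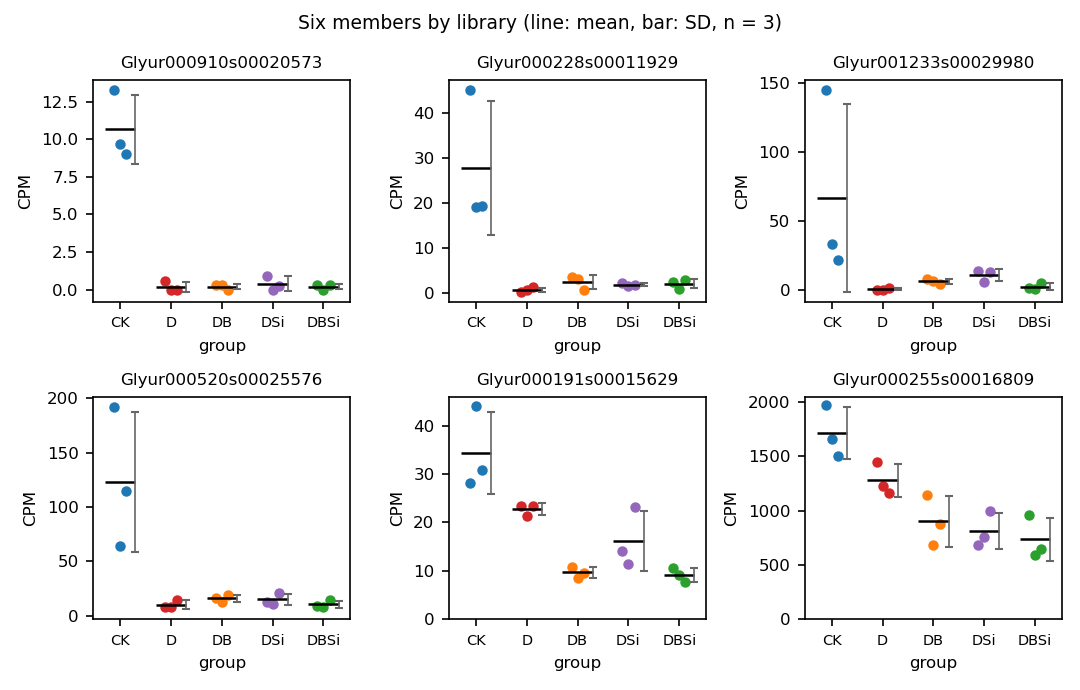
Level in CPM (vertical) of 6 genes in each library of the 5 groups (points), with the group mean (black line) and SD (grey bar, n = 3). Glyur000910s00020573 keeps its CK libraries close together at 9.001 to 13.3 CPM, Glyur001233s00029980 spreads from 22.4 to 145 CPM in CK, and Glyur000255s00016809 stays above 594 CPM in every droughted library.

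The 124 genes with a ratio under 2 remained expressed under drought at a median of 68.9% of their CK mean, and their watered libraries lay close together. Their highest CK library was a median 1.18 times the lowest. It exceeded 2 times the lowest in 1 of the 124, against 20.3% of 14880 genes with a ratio under 2, a closeness that the rule and a ratio under 2 together largely require. The gap between groups was narrow: their lowest CK library was a median 1.04 times the highest droughted one. In 103 of the 124, and in 128 of all 178, that gap was smaller than 1 counting SD of the lowest CK library, taken as the square root of its reads. Whether such a gap would recur in other libraries was not tested.

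Of the 8 genes with the highest CK mean, the first 3 were of this kind, and the fourth and the fifth had ratios above 2. Glyur000255s00016809 stood at 1973, 1658 and 1503 CPM in CK and between 594 and 1450 CPM in the droughted libraries, with a median of 921 CPM. Its means were 1711 ± 240 CPM (SD, n = 3) in CK and 932 ± 272 CPM (SD over 12 libraries) under drought, a ratio of 1.84. Glyur000088s00007712, at 1050, 882 and 1313 CPM in CK, ranged from 244 to 857 CPM in droughted libraries and overlapped none of them. The lowest of its 3 CK libraries lay 1.03 times above the highest droughted one, DBSi-3.

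Glyur000040s00007410 stood further apart, at 384, 238 and 259 CPM in CK and from 17.1 CPM in DB-3 to 178 CPM in DBSi-1, a ratio of 3.40. Glyur000023s00004864 stood at 220 to 257 CPM in CK and at 52.4 to 199 CPM in droughted libraries (ratio 2.03). Glyur000259s00016743 and Glyur000026s00001933 had ratios of 1.29 and 1.40, at CK means of 522 ± 57 and 197 ± 12 CPM (SD, n = 3). Glyur000674s00021151 and Glyur000191s00015616, at CK means of 231 ± 7.8 and 208 ± 13 CPM (SD, n = 3), were among the 4 genes with the smallest ratios, 1.16 and 1.13. The other 2 were Glyur000056s00004104 (1.15) and Glyur000409s00019942 (1.14).

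At the edges of the rule, values inside and outside were nearly equal. Glyur000185s00016469 was a member with a lowest CK library of 21.78 CPM and a highest droughted library of 21.76 CPM, and Glyur002401s00033805 with 21.63 and 21.61 CPM. Glyur000008s00001357 (35.28 against 35.30 CPM) and Glyur000598s00025102 (10.45 against 10.46 CPM) missed it. For the CK minimum, Glyur000045s00009972 and Glyur005537s00042481 lay inside at 5.08 and 5.18 CPM, and Glyur000504s00018064 and Glyur000192s00009318 outside at 4.99 and 4.88 CPM. For the clause on DBSi, Glyur000567s00021962 and Glyur000052s00005782 lay inside, with DBSi means 0.508 and 0.56 times the smallest other droughted mean. ONT.2118 and Glyur000131s00012970 lay outside at 0.492 and 0.480 times.

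Membership depended on how libraries were scaled. Median-of-ratios scaling, which sets the typical gene equal across libraries, lowered CK against the droughted libraries by 0.08 on the log2 scale, and 98 genes then met the rule, 92 of them among the 178. With quantile normalization 100 genes met it, 85 of them shared. Of the 28 genes with a ratio of 4 or more, 25 remained members with the first and 22 with the second. Of the 124 genes with a ratio under 2, 45 and 42 remained. The count also rested on having 3 CK libraries: without CK-1, CK-2 or CK-3, 620, 330 and 639 genes met the rule, including 176, 171 and 178 of the members. Only 9 genes had a lowest CK library more than 2 times their highest droughted one.

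**Figure D4:**
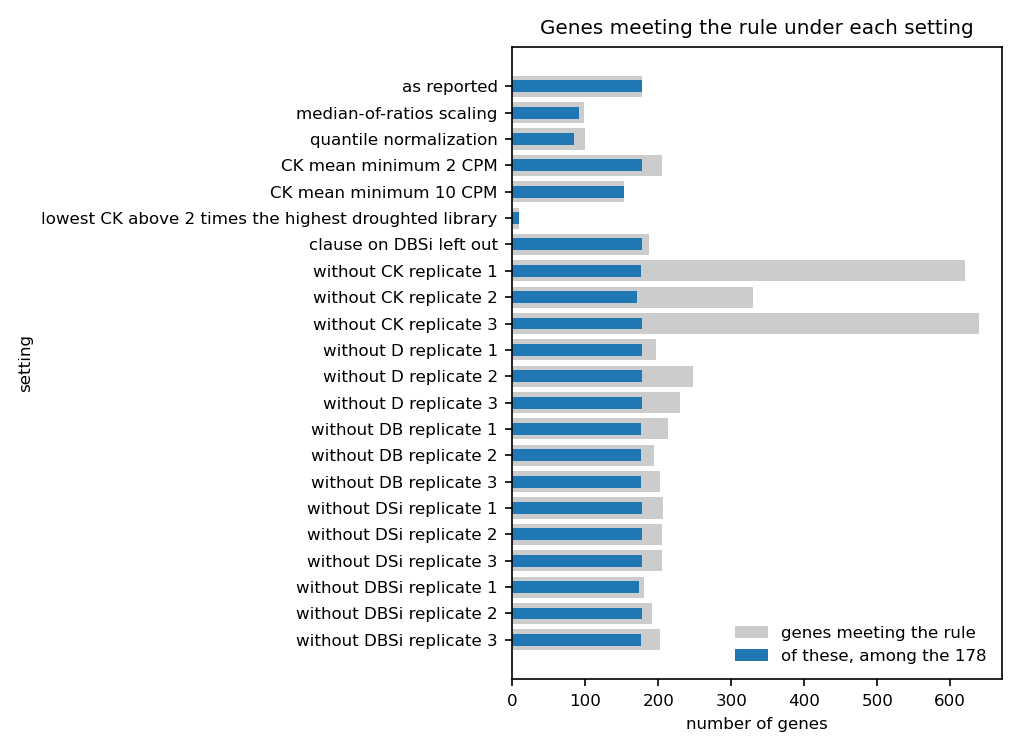
Number of genes meeting the rule (horizontal, grey bars) under each setting (vertical), with those among the 178 in blue. The count is 98 and 100 under the alternative scalings and 330 to 639 when a CK library is left out.

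The study also asked whether the bacterium or silicon changed expression among droughted plants. For these genes the answer is limited by the rule, which keeps every D, DB and DSi library below CK and so leaves out any gene that an addition brought to the watered level. The median group mean was 67.2% of the CK mean for D and 61.1% for DB. It was 62.6% for DSi and 57.9% for DBSi, while over all 15501 genes with the same CK minimum the medians were 93.9, 90.4, 97.3 and 91.4%. Together the 178 genes held 10859 ± 431 CPM (SD, n = 3) in CK. Their sum was 6904 ± 98.4 CPM under drought alone, 6247 ± 457 CPM with the bacterium, 6470 ± 83.0 CPM with silicon and 6109 ± 115 CPM with both (SD, n = 3). The 3 sums under drought alone, 6842 to 7017 CPM, lay above all 9 sums with an addition, which ran from 5822 to 6730 CPM. Without the 2 most abundant genes the sums were 5022 ± 156 CPM in D, 4890 ± 243 CPM in DB and 4962 ± 78.5 CPM in DSi (SD, n = 3), and these groups overlapped. In DBSi the sum was then 4618 ± 71.3 CPM (SD, n = 3). Its libraries, at 4569 to 4699 CPM, stayed below the lowest D sum of 4845 CPM. They overlapped DB, at 4699.4 CPM in DBSi-3 against 4698.6 CPM in DB-3. The rule acts on the DBSi mean of each gene, so nothing is read from the separation from D. The sums were not tested. No library of a droughted group reached the lowest CK sum, as the rule requires of each gene.

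**Figure D5:**
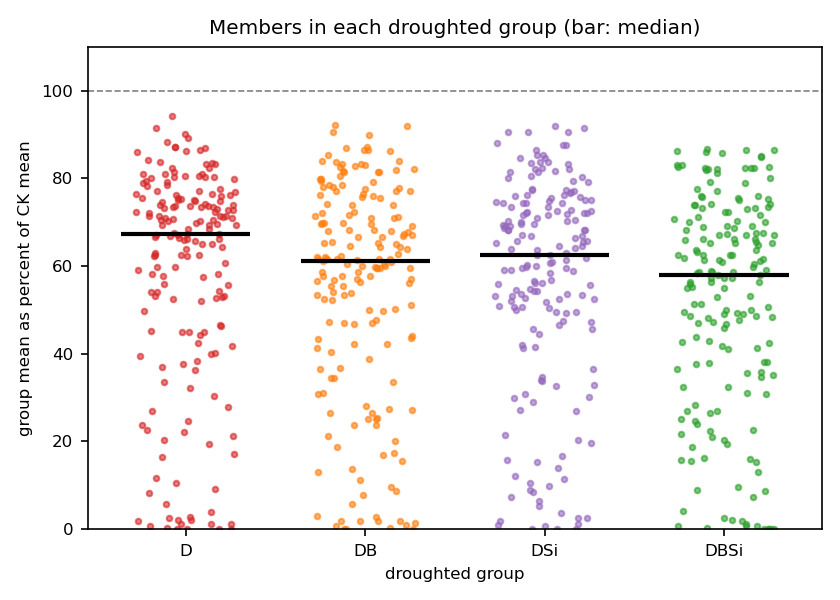
Mean of each of the 178 genes in a droughted group as a percent of its CK mean (vertical), by group (horizontal), with the median as a black bar. The medians lie between 57.9% (DBSi) and 67.2% (D), and the highest genes reach 94.2% for D, 92.2% for DB, 91.9% for DSi and 86.8% with both additions.

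The members were compared between D, DB and DSi with limma on log2(CPM + 1), fitted to all genes. Of the 178, 174 passed the filter of 1 CPM in 3 libraries. The 4 that did not were Glyur000387s00017687, Glyur000434s00017229, Glyur003348s00039967 and Glyur000436s00018467. Of the 174, 7 had fewer than 3 droughted libraries at 1 CPM and so passed with the help of CK. In 4 of these, Glyur000001s00000113, Glyur000910s00020573, Glyur001839s00033722 and Glyur000088s00007756, every D, DB and DSi library lay under 1 CPM, where a difference could hardly be detected. In DB against D, limma called 0 of 174 members after Benjamini-Hochberg adjustment, where 0.49% of all 22654 tested genes were called. At an unadjusted p under 0.05 there were 15 members (8.62%) against 12.2% of all genes. With edgeR 0 members were called, where it called 0.38% of genes, and with DESeq2 2, where it called 2.63% of the 17364 genes to which it gave an adjusted p. In DSi against D limma called 0 members, where 0.0265% of genes were called, with 11 members (6.32%) against 7.96% of genes below the unadjusted 0.05. Of the members, edgeR called 0 (0.0221% of genes) and DESeq2 1 (0.732% of 21309 genes). In DB against DSi limma called 0 members and 0% of all genes, with 13 members (7.47%) against 9.001% at an unadjusted p under 0.05, and edgeR (0% of genes) and DESeq2 (0.0619% of 22627 genes) called 0 members. At these backgrounds few or no calls would fall among 174 genes, and since the rule used the same libraries, nothing is read from the members' shares.

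The first 2 comparisons share the D libraries, so their values are given side by side only. The median log2 difference of the 174 members was -0.04 in DB and 0.01 in DSi against D, and -0.06 and 0.07 over all tested genes. In DB, 42.5% of members were higher than in D, against 44.3% of all genes, and in DSi 51.7% against 59.0%. Between DB and DSi the median was -0.03 for members and -0.12 for all genes. The median standard error of a member's difference was 0.22, so changes of that size in single genes were not detectable with 3 libraries a group.

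Among members with a droughted group mean of 5 CPM or more, Glyur001233s00029980 had the largest ratio of that mean to the smallest droughted mean. It stood at 145, 33.3 and 22.4 CPM in CK and at 0.287, 0.329 and 1.82 CPM in D. In DB it stood at 8.37, 6.45 and 4.66 CPM, in DSi at 14.3, 6.003 and 13.4 CPM, and in DBSi at 1.502, 1.14 and 5.59 CPM. All 6 DB and DSi libraries lay above the 3 D libraries, while DBSi overlapped D. The values in D-1 and D-2 are those of 1 read, under the floor of 3 reads per library. The size of the difference from D is therefore poorly determined. The log2 difference from D was 2.12 (SE 0.62, limma adjusted p = 0.18) in DB and 2.77 (SE 0.62, limma adjusted p = 0.155) in DSi, and neither was called. In DESeq2 its adjusted p was 0.0273 and 0.00811.

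Glyur000191s00015629, named after its values were seen, had the smallest adjusted p of any member in DB against D. It stood at 28.2, 44.1 and 30.8 CPM in CK, at 23.5, 21.4 and 23.4 CPM in D and at 10.8, 8.59 and 9.62 CPM in DB. The 3 DB libraries lay below the 3 D libraries, and the log2 difference was -1.16 (SE 0.24, limma adjusted p = 0.0539). In DSi it stood at 14.0, 11.4 and 23.2 CPM and in DBSi at 10.5, 9.13 and 7.76 CPM. It was called with a filter at 5 CPM, without CK-2, without DSi-3 and in DESeq2, with adjusted p values of 0.0397, 0.0422, 0.0277 and 0.0138. The other 21 alternatives did not call it. They include edgeR (adjusted p = 0.0788) and each fit that left out a D or DB library.

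Glyur000567s00021962 was uneven within droughted groups. It stood at 27.2, 41.5 and 17.1 CPM in CK. Of the droughted libraries, D-1, D-2, DB-3 and DSi-2 lay between 13.8 and 14.5 CPM, and the other 8 between 0.608 and 3.72 CPM. The division ran across the groups, so that the group means of 9.61 ± 7.8 CPM in D, 5.36 ± 7.5 in DB and 5.62 ± 7.1 in DSi (SD, n = 3) did not describe any single library.

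DBSi was not tested, because the rule sets a lower limit on its mean and keeps each of its libraries below CK. Both conditions shape the shares that follow, so nothing is read from their differences from all genes. Its mean lay above that of D in 61 of the 178 genes (34.3%), against 45.4% of all genes with the same CK minimum, and DBSi had the lowest mean of the 4 droughted groups in 76 (42.7%), against 31.8%. The highest of the 4 means was that of D in 63 genes (35.4%, against 28.8% of all genes) and of DB in 47 (26.4%, against 17.4%). It was that of DSi in 47 (26.4%, against 27.97%) and of DBSi in 21 (11.8%, against 25.8%). Means of DB, DSi and DBSi all lay above D in 37 genes (20.8%) and all below D in 62 (34.8%), where the shares over all genes were 28.2 and 28.8%.

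Isoform use was not part of the rule. An isoform was assigned to a gene by its ID or where the reads of one newly assembled locus made up the rest of the gene's reads exactly in all 15 libraries, which joined 167 of the 178 genes. Of these, 36.5% had 1 isoform and 29.3% had 2 or more isoforms at 10% or more of their CK reads, against 35.7% and 29.2% of 14661 joined genes with the same CK minimum. For 37 members with 20 reads or more in every library, the share of the main CK isoform could be followed. In 0 of the 37 did the 3 CK libraries lie apart from the 12 droughted ones, where the background was 0.574% of 3309 genes, or 19. This was a count of overlap with no test. Of the 28 genes with a ratio of 4 or more, only Glyur000079s00008941 is among the 37, so the count hardly covers them. Its main isoform took 79.7 to 86.2% of reads in CK and 81.8 to 100% in droughted libraries.

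Glyur000056s00004104 had its reads divided between 2 isoforms in nearly equal shares. Its main isoform took 52.1 ± 3.6% of reads in CK (SD, n = 3) and 51.2 ± 4.5% over the 12 droughted libraries (SD). The main isoform of Glyur000089s00008818 took 78.9 ± 7.6% in CK and 82.2 ± 5.3% under drought. That of Glyur000023s00004864 varied more within CK, at 95.1, 64.1 and 90.2%, and between 59.0 and 100% in droughted libraries. In Glyur000879s00025352, with a ratio of 3.02, the main isoform held 81.2% of CK reads and 85.1% of droughted reads. In Glyur000002s00000301, with a ratio of 1.195, it held 68.8 and 67.5%. These 5 are the members with most CK reads among those with 2 or more isoforms at 10% or more, and in none of them did the CK shares lie apart from the droughted shares.

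Of the 178 genes, 3 had IDs beginning with ONT, which mark loci named for the nanopore data, or 1.69% against 4.94% of all genes with the same CK minimum. ONT.19725 stood at 25.6, 34.1 and 27.0 CPM in CK and 9.70 to 20.5 CPM in droughted libraries. ONT.17393 and ONT.10491 had ratios of 1.57 and 1.53. Among the other 175, 37 shared the first block of their ID with at least 1 other member, in 17 blocks of at most 3, and 1 pair, Glyur000229s00018867 and Glyur000229s00018868, had consecutive numbers. That pair stood at 10.4 ± 2.0 and 5.77 ± 0.52 CPM in CK (SD, n = 3), with ratios of 2.30 and 1.82, and was chosen after its values were seen. What the blocks stand for is not given in the sources used here, and whether near-identical copies share reads was not checked.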

How the data were processed

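The authors deposited CPM values for genes and isoforms, 1 column per library (per the file headers), from nanopore cDNA amplified by 14 PCR cycles. Alignment software is listed as minimap2 in the submitters' processing notes. The genome build, filters, counter and software version are not given there or in the labels. Within a tolerance of 0.01, 100% of values were whole multiples of 1 read, so reads were recovered. CPM is relative: a gene's share moves when others move, and intervals cover counting error only, since amplified reads can repeat a molecule.

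Groups were read from titles. Nothing in the labels places replicates in different pots, so the spread behind each p-value may be technical only. The members, lists and tests were chosen with earlier results of these data known. limma 3.58.1 in R 4.3.3 was fitted with a trend to log2(CPM + 1) of 22654 genes with 1 CPM or more in at least 3 of 15 libraries, two-sided, threshold 0.05. Alternatives included edgeR 4.0.16 (quasi-likelihood, TMM) and DESeq2 1.42.0 on recovered reads, and the tests were tried on simulated data. Named genes were the 8 with the highest CK mean, the 8 largest and 4 smallest ratios, and 5 for isoforms. The 3 ONT genes and those next to each threshold were also named. So were the 2 with the largest ratio between droughted group means, among members with 5 CPM or more in the higher group. Others are marked as chosen after their values were seen. Lists of named genes were not run, since no names were given.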

Additional observations from a re-analysis of the deposited data

How the results depend on the processing

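The 178 genes became 98 with median-of-ratios scaling and 100 with quantile normalization. They became 9 where the lowest CK library had to exceed 2 times the highest droughted one. The median ratio of these 9 was 72.8. That condition requires a ratio above 2 of any gene with a droughted read, so a higher median is partly built in. With 1 library left out, 180 to 639 genes met the rule, with median ratios of 1.5004 to 1.76. limma called 111 genes in DB against D, 6 in DSi against D and 0 in DB against DSi (2039 at an unadjusted p under 0.05), and edgeR 86, 5 and 0. DESeq2 called 456, 156 and 14, and among members 2, 1 and 0. The first count was 45 with the 2 compared groups alone, and the second 3 with no filter. A filter at 5 CPM called 1 member in DB against D. With 1 library left out, the counts of genes ran from 24 to 154, 0 to 15 and 0 to 1, and those of members from 0 to 1, 0 to 0 and 0 to 0. With a replicate block the counts of genes were 71, 0 and 0, and 0 members were called in each comparison. The labels tie the replicate numbers to no shared pot or batch, and deviations of same-numbered libraries correlated at 0.03, -0.14 and -0.15 (DB and D), -0.11, 0.25 and 0.23 (DSi and D) and 0.17, -0.07 and -0.01 (DB and DSi), so that not every pair exceeded 0.1. The cause of these shifts was not tested. Depth limits genes near 0, where 3 reads were worth 0.742 to 0.987 CPM.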
